A study of Mus musculus with 7 samples.

Results

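The contractile genes of myoepithelial and smooth muscle cells were followed in the mammary glands of mice that carry additional progesterone receptor A (PRA). Acta2, Actg2, Tagln, Cnn1, Lmod1, Myh11, Myl9, Mylk, Oxtr and Trp63 were chosen by name, and every probe whose gene name in the array files was one of these was taken, control probes excepted. This gave 25 probes for 10 genes among 56605 probes with 37074 distinct gene names. Of the 25 probes, 21 had a gland signal well above background in every animal of 1 genotype or of both and were tested, and these covered 9 of the 10 genes.

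Each of the 7 arrays held the RNA of a single abdominal mammary gland, with lymph nodes removed, from a nulliparous FVB mouse of 20 to 25 weeks taken at diestrus. The 3 wild-type animals were littermates of the transgenics. The 4 PRA transgenics were bigenic mice in which the murine cytomegalovirus promoter, active in many tissues, drives the GAL-4 transactivator (CMV-GAL-4), and GAL-4 in turn drives UAS-PR-A. Gland RNA carried Cy5 and Universal Mouse Reference RNA, a pool from 11 mouse cell lines, carried Cy3, with no dye swap. The log2 ratio of Cy5 to Cy3 therefore sets each gland against the same reference, and 0 means an equal signal. All arrays lay on 1 slide, wild-type in row 1 and PRA transgenics in row 2, so that genotype and position on the slide cannot be told apart. No spot was saturated, between 56.7% and 66.2% of probes on an array were well above background in Cy5, and 7 arrays set the limit to the precision.

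Myoepithelial cells form the basal layer of mammary ducts and alveoli and contract when oxytocin reaches them during lactation. They share their contractile apparatus with the smooth muscle of vessel walls: actin filaments slide along myosin after the myosin light chain is phosphorylated, and calponin and transgelin bind the actin. In a whole gland the RNA of both cell types is mixed, and fewer cells of a type cannot be told apart from less RNA per cell. The basal keratins Krt14 and Krt5, structural proteins of the basal layer, were measured on every array, with log2 ratios of 2.92 to 3.87 and of 2.92 to 3.16. They were chosen after their values were seen. The mean of the 32 genes kept from the basal epithelium list was lower, from 1.38 to 1.76 over the arrays.

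Several of these genes gave different values on different probes, so the probes on which the results turn are shown first, with their positions on mm9 in the array files. Each is 60 bases long. A probe for smooth muscle alpha actin matches across a splice junction, since its 60 bases span 3255 bases of the genome.
Acta2 A_51_P450957, chr19:34322995-34326249, minus strand: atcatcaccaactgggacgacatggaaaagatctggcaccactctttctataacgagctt
It shared no run of 15 bases or more with a probe of another gene on the array. The same held for the Myh11 probes that stood far above the reference. Probes were compared only with other probes, so matches to the transcripts of other genes were not examined. A pair of these Myh11 probes is shown.
Myh11 A_55_P1988531, chr16:14202190-14202249, minus strand: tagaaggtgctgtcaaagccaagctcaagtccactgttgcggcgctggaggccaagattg
Myh11 A_55_P2734582, chr16:14207835-14208094, minus strand: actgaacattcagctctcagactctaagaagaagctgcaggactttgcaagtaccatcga
The brightest Trp63 probe is shown because it gave another answer than the other Trp63 probes. Its capitals mark the unit CAG repeated 6 times.
Trp63 A_55_P2161055, chr16:25871159-25871218, plus strand: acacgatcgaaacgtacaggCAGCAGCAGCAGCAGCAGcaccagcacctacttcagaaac
This run of 18 bases occurred in 3 probes of the array, and the probe shared 20 bases with one for Crebbp.

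No contractile gene passed the test across all probes, and most differences between the genotypes were small. By the brightest kept probe of each gene, 8 of 9 genes were higher in PRA transgenics and 1 was lower, with a median log2 fold change of 0.14, while over all 34288 probes tested 54.2% were higher and the median was 0.02. The number higher was 7 in Cy5 alone, 6 without wild-type replicate 2 and 9 by the median over the kept probes of a gene. In the same fits 50.5%, 55.6% and 54.6% of all values were higher. For Acta2, Mylk and Trp63 the direction differed between kept probes. None of the 9 genes had an adjusted p under 0.05 in limma with Benjamini-Hochberg adjustment, where 4 of all probes, or 0.0117%, did. Only Tagln had an unadjusted P under 0.05, which is 1 of 9 genes against 9.02% of all probes (4.54% higher and 4.48% lower in PRA transgenics), and only Tagln had genotypes that did not overlap, against 9.93% of all probes (5.41% higher). None passed an unadjusted P under 0.01 together with a 2-fold change, a limit that 0.796% of all probes passed. For the brightest probe of each of the 9 genes the 95% confidence interval lay inside a 2-fold change in either direction, between 0.649-fold and 1.76-fold. When wild-type replicate 1 was left out, the interval of Myh11 reached 2.06-fold. Other kept probes reached further with all arrays. Cnn1 A_55_P2744265 had an interval of 1.19 to 2.75-fold and Myh11 A_55_P2734582 of 0.615 to 2.03-fold. Without wild-type replicate 3, 3 genes were under an unadjusted 0.05, Acta2, Cnn1 and Tagln, against 7.48% of all probes in the same fit (3.42% higher). In that fit 5 had genotypes that did not overlap, Acta2, Cnn1, Mylk, Tagln and Myl9, against 17.3% of all probes (9.13% higher). All 5 were higher in PRA transgenics and the median was 0.31, but the adjusted p of each stayed above 0.05. Wild-type replicate 3 was the highest animal for Acta2, Cnn1 and Mylk, and of the fits without a single array this one had the most genes. The number under an unadjusted 0.05 was 0 without wild-type replicate 1 or 2 or PRA transgenic replicate 2 or 3. It was 1 without PRA transgenic replicate 1 or 4.

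**Figure D1:**
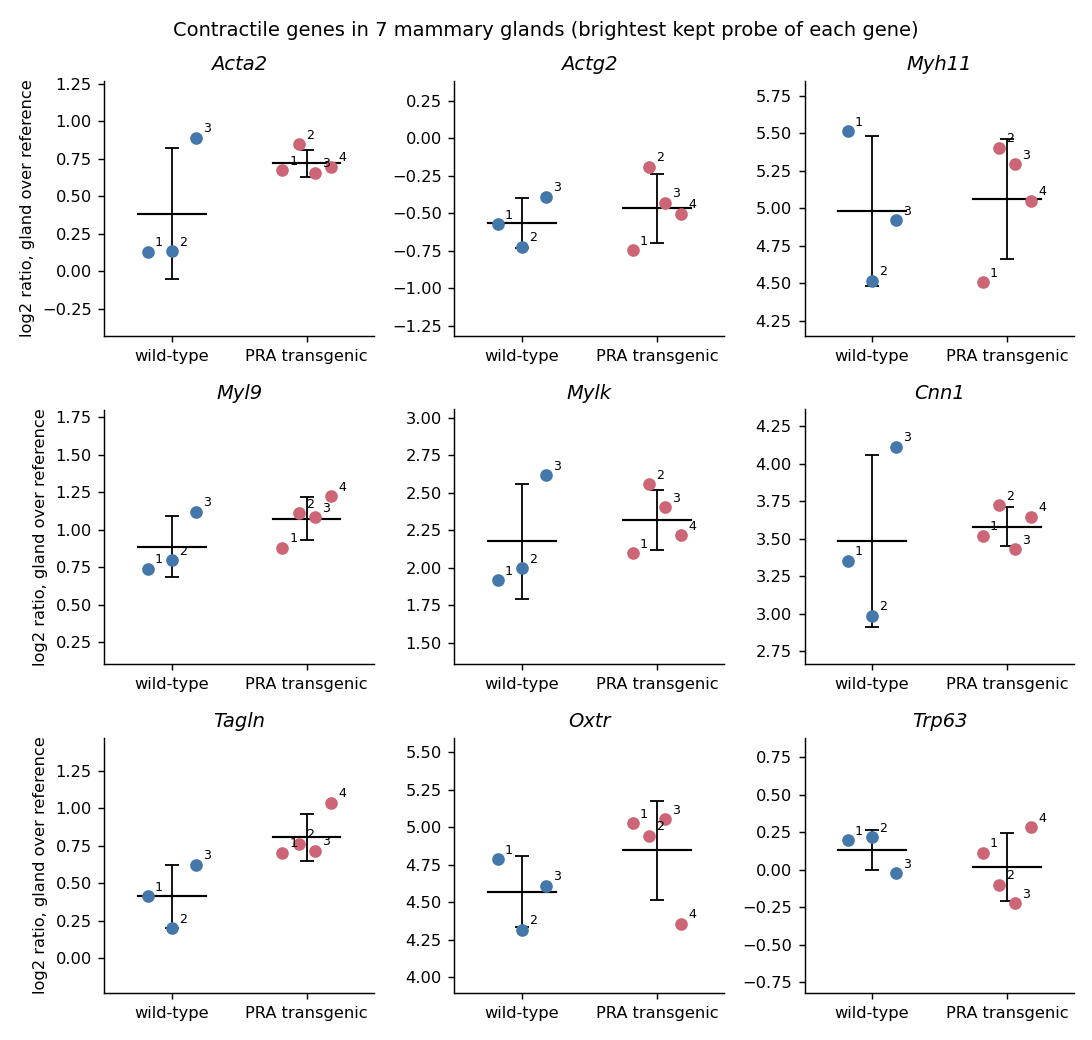
Log2 ratio of gland (Cy5) to reference (Cy3) of the brightest kept probe of each gene, with 1 numbered point per animal, the mean as a line and the SD as bars (3 wild-type, 4 PRA transgenics); each vertical axis spans the same number of log2 units around a centre of its own. Tagln is the gene whose genotypes do not overlap, and wild-type replicate 3 is the highest animal for Acta2, Mylk and Cnn1.

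Tagln encodes transgelin (SM22), an actin-binding protein of smooth muscle and myoepithelial cells. Its single probe (A_51_P450527, chr9:45738097-45738156 of mm9) read a log2 ratio of 0.41, 0.20 and 0.62 in wild-type replicates 1 to 3 and of 0.70, 0.76, 0.72 and 1.04 in PRA transgenic replicates 1 to 4. Every PRA transgenic lay above every wild-type animal, the closest being wild-type replicate 3 and PRA transgenic replicate 1, and PRA transgenic replicate 4 stood highest. The log2 fold change was 0.39 (standard error 0.15), a 1.31-fold higher level with a 95% interval of 1.03 to 1.68-fold (limma, adjusted p = 0.513). In Cy5 alone, scaled to the 75th percentile of each array, the difference was 0.37 and the genotypes again did not overlap, as for 9.65% of all probes, and the reference differed by -0.01. The adjusted p in Cy5 alone was 0.544 in limma, so Tagln passed the adjustment on neither scale. Single arrays left out moved its log2 fold change between 0.29 and 0.50, and it was under an unadjusted 0.05 in 2 of these 7 fits, without wild-type replicate 3 and without PRA transgenic replicate 1. Its genotypes did not overlap in these fits either, which is bound to hold once they do not overlap with all arrays. In the same fits 12.4% to 19.5% of all probes did not overlap.

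Acta2 encodes smooth muscle alpha actin, the actin by which myoepithelial cells are usually identified. Its brightest probe (A_52_P420504, chr19:34316060-34316119) read 0.13, 0.13 and 0.89 in wild-type and 0.67, 0.85, 0.66 and 0.70 in PRA transgenics. The PRA transgenics clustered closely, with an SD of 0.09 (n = 4), while in wild-type the SD was 0.44 (n = 3), with replicates 1 and 2 low and replicate 3 the highest of all animals. The log2 fold change of 0.33 (limma, adjusted p = 0.686, standard error 0.21) lay within that spread, with an interval of 0.900 to 1.76-fold. Without wild-type replicate 3 it was 0.59 and the genotypes no longer overlapped. The junction probe printed above gave -0.32, -0.44 and 0.24 in wild-type and -0.44, -0.04, -0.25 and -0.07 in PRA transgenics, and A_52_P210078 gave 0.10, 0.08 and 1.09 against 0.34, 0.66, 0.20 and 0.28. On both of these the genotypes overlapped and wild-type replicate 3 was again the highest animal, and their log2 fold changes were -0.03 and -0.06, of opposite sign to the brightest probe. The direction of Acta2 therefore depended on the probe. Another Acta2 probe was well above background on 2 arrays and was not tested.

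Actg2 encodes smooth muscle gamma actin, the actin of visceral smooth muscle. Its probe read -0.57, -0.72 and -0.39 in wild-type and -0.75, -0.19, -0.43 and -0.50 in PRA transgenics, below the reference in every animal. The genotypes overlapped, with PRA transgenics as both the lowest and the highest animal, and the log2 fold change was 0.10 (standard error 0.16, interval 0.817 to 1.40-fold). Without PRA transgenic replicate 2 it was 0.0028, and leaving out PRA transgenic replicate 1 it was 0.19, the lowest and highest values of these fits.

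Cnn1 encodes calponin 1, which binds actin and slows the myosin ATPase. Its brightest probe (A_51_P350817, chr9:21913058-21913117) read 3.35, 2.99 and 4.11 in wild-type and 3.52, 3.72, 3.43 and 3.64 in PRA transgenics. Wild-type animals were both the lowest and the highest, the PRA transgenics lay between them, and the log2 fold change was 0.10 (standard error 0.26), or -0.15 without wild-type replicate 2. Calponin was the gene with the widest range over the animals, 1.13 log2 units or 2.18-fold. A second probe (A_55_P2744265) read 2.22, 1.91 and 2.60 against 3.37, 2.57, 3.41 and 3.05, a log2 fold change of 0.86 (limma, adjusted p = 0.426). On it the genotypes overlapped only between wild-type replicate 3 and PRA transgenic replicate 2. Its reference signal was well above background on 2 arrays and differed by -0.60, and in Cy5 alone the difference was 0.25 on both probes.

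Lmod1 encodes leiomodin 1, which starts actin filaments in smooth muscle. Its single probe (A_66_P123617, chr1:137264581-137264640) did not rise well above background in either channel in any animal, so no fold is given.

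Myh11 encodes the smooth muscle myosin heavy chain, the motor of the thick filament. The brightest of its 4 probes (A_51_P362429, chr16:14195223-14198147) read 5.51, 4.52 and 4.92 in wild-type and 4.51, 5.40, 5.29 and 5.05 in PRA transgenics. The gland stood far above the reference in every animal, the genotypes overlapped over most of their range, and the log2 fold change was 0.08 (standard error 0.30, interval 0.649 to 1.72-fold), or -0.15 without wild-type replicate 2. The reference was well above background for this probe on 3 arrays, for A_55_P1988531 on 2 and for A_55_P2734582 on 0. In Cy5 alone these 3 probes differed by 0.44, 0.60 and 0.54, more than the 0.08, 0.22 and 0.16 of their ratios, and the reference itself by 0.37, 0.39 and 0.39. For A_55_P1988531 the Cy5 difference was under an unadjusted 0.05, as for 8.73% of all probes (4.16% higher), its adjusted p was 0.524 in limma, and its genotypes overlapped. The remaining probe (A_55_P2733242, chr16:14249625-14249684), listed under another transcript of the gene, read between -0.38 and -0.03 on all arrays and gave 0.01.

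Myl9 encodes a regulatory light chain of smooth muscle myosin, whose phosphorylation starts contraction. Its kept probe (A_51_P308298, chr2:156607301-156607360) read 0.74, 0.80 and 1.12 in wild-type and 0.88, 1.11, 1.09 and 1.22 in PRA transgenics. Wild-type replicates 1 and 2 were below every PRA transgenic, and wild-type replicate 3 was above all PRA transgenics but replicate 4. The log2 fold change was 0.19 (standard error 0.15, interval 0.899 to 1.45-fold), and Cy5 alone gave the same 0.19. A second Myl9 probe, without a position in the files, was well above background on 0 arrays.

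Mylk encodes the kinase that phosphorylates the light chain, and 5 probes for it were kept. The brightest (A_52_P575217, chr16:34996839-34996898) read 1.91, 2.00 and 2.62 in wild-type and 2.10, 2.56, 2.40 and 2.21 in PRA transgenics, a log2 fold change of 0.14 (standard error 0.21), which ran from 0.011 without wild-type replicate 1 to 0.36 without wild-type replicate 3. As for Acta2, wild-type replicates 1 and 2 were the lowest animals and wild-type replicate 3 the highest. Among the other Mylk probes A_51_P286146, the farthest along the plus strand, had the largest difference, 0.48 (limma, adjusted p = 0.576), with 1.45, 1.60 and 2.10 against 2.30, 2.49, 2.18 and 1.84. Only wild-type replicate 3 and PRA transgenic replicate 4 overlapped on it. A_55_P1997375 had the opposite sign, -0.37, a difference of over 0.5 from the brightest probe, and it and A_55_P2715663 are listed under transcripts other than that of the remaining 3 probes. These 2 probes read -2.01 to 0.04 in all animals, whereas the remaining 3 read above the reference in every animal.

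**Figure D2:**
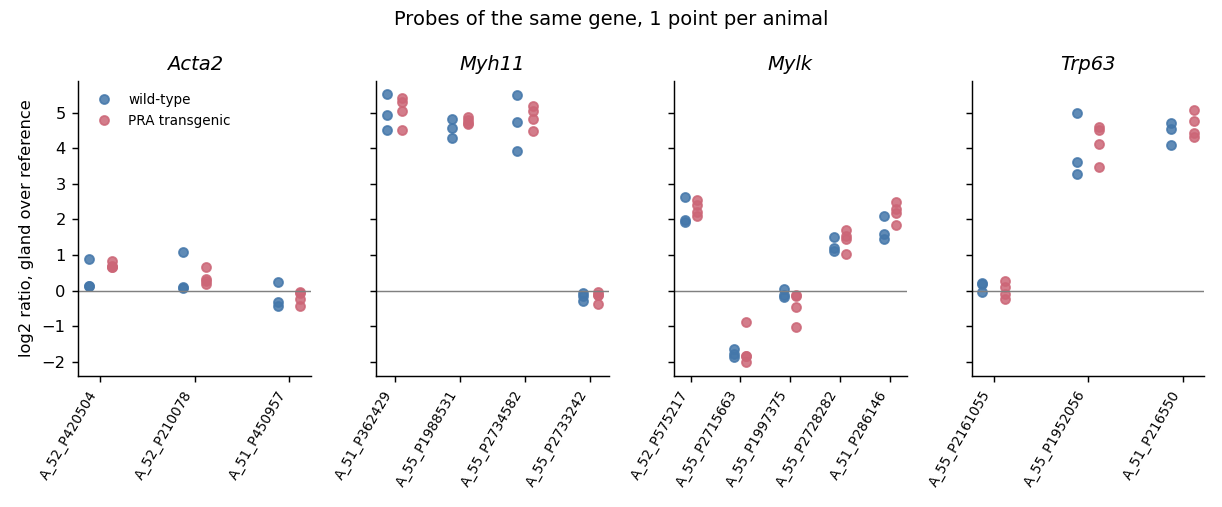
Log2 ratio of gland to reference for every kept probe of Acta2, Myh11, Mylk and Trp63, with 1 point per animal, wild-type on the left and PRA transgenics on the right of each probe. The probes of a gene stood at different ratios to the reference, as for Trp63, where A_55_P2161055 lay between -0.22 and 0.28 and A_51_P216550 between 4.09 and 5.06.

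Oxtr encodes the oxytocin receptor, through which oxytocin makes myoepithelial cells contract. Its probe (A_55_P2013203, chr6:112423686-112423745) read 4.79, 4.32 and 4.61 in wild-type and 5.03, 4.94, 5.05 and 4.36 in PRA transgenics. PRA transgenic replicates 1 to 3 lay above every wild-type animal and replicate 4 fell below all but wild-type replicate 2. The log2 fold change was 0.27 (limma, adjusted p = 0.753, standard error 0.21). It was 0.15 without wild-type replicate 2 and 0.44 without PRA transgenic replicate 4. In the latter fit Oxtr was the gene under an unadjusted 0.05, as for 12.3% of all probes, and its genotypes did not overlap, as for 19.5%, but its adjusted p was 0.366 in limma. In Cy5 alone the sign turned to -0.18 (interval -0.79 to 0.43). The reference signal for this probe differed by -0.45 although the reference RNA was the same on every array. Oxtr is given no direction.

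Trp63 encodes p63, a transcription factor that keeps cells basal. The brightest probe, printed above with its repeat, read 0.20, 0.22 and -0.02 in wild-type and 0.11, -0.10, -0.22 and 0.28 in PRA transgenics, with a log2 fold change of -0.11 (standard error 0.16). The genotypes overlapped, and both channels were well above background on all 7 arrays. Of the other kept probes, A_51_P216550 (chr16:25892012-25892071) read 4.09, 4.53 and 4.72 against 4.33, 5.06, 4.42 and 4.78, and A_55_P1952056 (chr16:25821344-25821403) read 3.63, 5.00 and 3.29 against 3.49, 4.60, 4.50 and 4.12. On these the gland stood far above the reference, which was well above background on 0 arrays for either, and the log2 fold changes were 0.20 and 0.21, opposite in sign to the brightest probe. The correlation over the 7 animals between the brightest probe and A_51_P216550 was -0.24 (two-sided exact permutation test, p = 0.603; Spearman's rho -0.04, p = 0.963; -0.09 without the 2 animals farthest from the median). Which transcripts each Trp63 probe reports was not analysed here. Another Trp63 probe was well above background on 0 arrays.

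Over all 21 kept probes, 17 log2 fold changes were positive and 4 negative, against 54.2% positive over all probes tested, and the median was 0.15. Probes of the same gene are counted separately here. The probe of Tagln and the second probe of Cnn1 had an unadjusted P under 0.05, 9.52% against 9.02% of all probes. In Cy5 alone 15 were positive, against 50.5% of all probes. Tagln and a Myh11 probe were under 0.05 there, again 2 of 21, against 8.73% of all probes. The lowest adjusted p was 0.426 for the ratio and 0.524 for Cy5 alone, both from limma, and in Cy5 alone 0.0146% of all probes had an adjusted p under 0.05. The reference was well above background on all arrays for 15 of the 21 probes, on some for 3 and on none for 3. The sign differed between kept probes of the same gene for Acta2, Mylk and Trp63, and for Oxtr and the Myh11 probe A_55_P2733242 (0.01 and -0.09) it differed between the ratio and Cy5 alone.

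**Figure D3:**
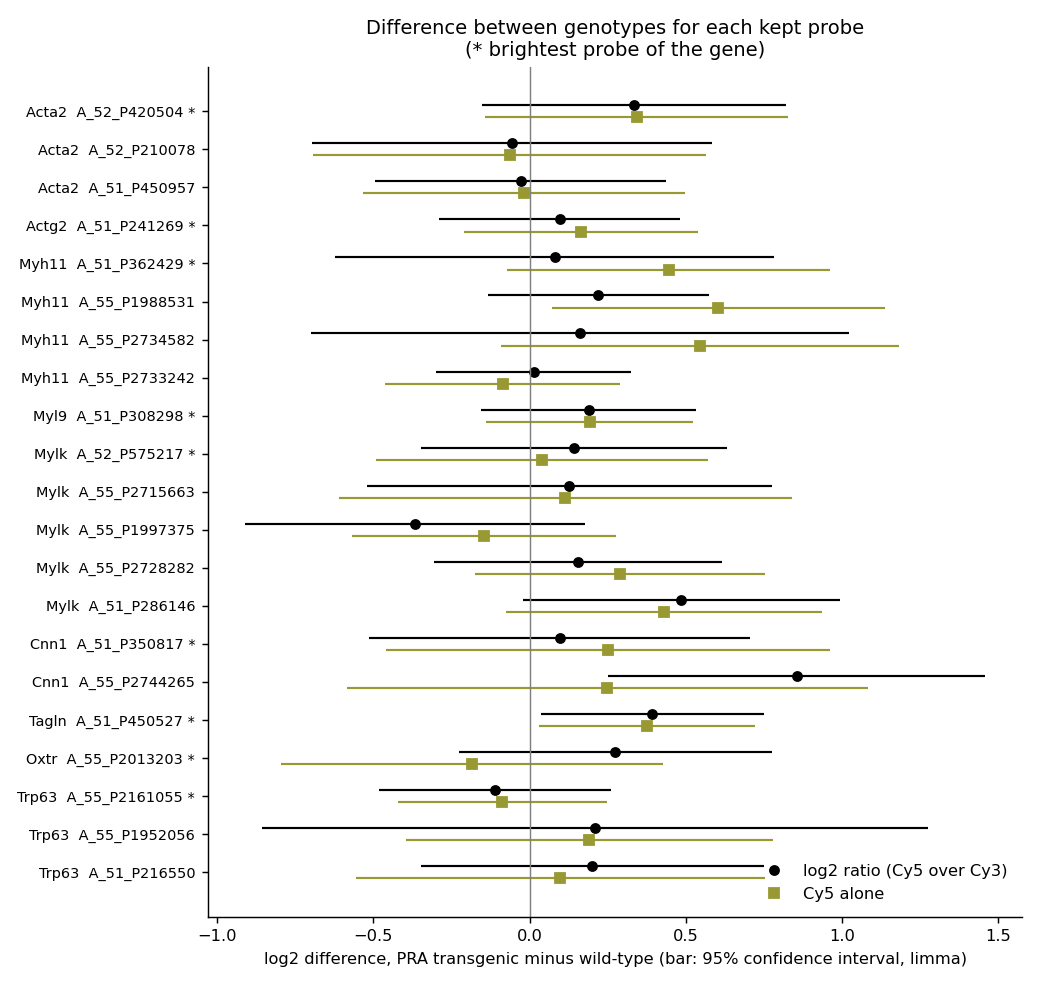
Difference between genotypes on the log2 scale for each of the 21 kept probes, with its 95% confidence interval from limma, for the ratio (black circles) and for Cy5 alone (olive squares). The intervals of Tagln on both scales, of Cnn1 A_55_P2744265 for the ratio and of Myh11 A_55_P1988531 for Cy5 alone do not include 0; those of all other probes do.

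Over the 7 animals the brightest probes ranged over 0.48 to 1.13 log2 units, and the SD was larger in wild-type for 6 genes and in PRA transgenics for 3. Wild-type replicate 2 was the lowest animal for 3 genes and wild-type replicate 1 for another 3, while wild-type replicate 3 and PRA transgenic replicate 4 were each the highest for 3. Mean log2 ratios of the 9 genes were 1.83, 1.60 and 2.05 in wild-type and 1.86, 2.12, 2.00 and 2.00 in PRA transgenics. Wild-type replicates 1 and 2 therefore had the lowest means, and wild-type replicate 3 lay among the PRA transgenics.

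Acta2 and Cnn1 were the pair with the lowest p across animals, with Pearson's r of 0.85 (two-sided exact permutation test, p = 0.00218) and Spearman's rho of 0.96 (exact permutation p = 0.00278), 0.90 without the 2 animals farthest from the median, and 0.94 for deviations from the genotype means. Among 45 pairs of the 9 genes and A_51_P216550 of Trp63, 34 correlations were positive and 7 had an exact permutation p under 0.05, but none passed Benjamini-Hochberg adjustment over the pairs, and the lowest adjusted p was 0.0982. Tagln and Myl9 had r of 0.83 (exact permutation p = 0.0115, adjusted p = 0.173; rho 0.75, p = 0.0663; 0.75 without 2 animals). Acta2 and Tagln had r of 0.76 (exact permutation p = 0.0427, adjusted p = 0.262; rho 0.54, p = 0.236), which became -0.37 without 2 animals and so rested on them. All points of a pair share their arrays.

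Myh11 correlated weakly with Acta2 and Myl9 in the ratio and closely in Cy5 alone. With Acta2 its r was 0.07 in the ratio (exact permutation p = 0.869; rho -0.18, p = 0.713; 0.23 without 2 animals) and 0.95 in Cy5 alone, and with Myl9 the values were 0.21 (exact permutation p = 0.619; rho -0.07, p = 0.906; -0.70 without 2 animals) and 0.95. The reference signal of Myh11, the divisor of the ratio, was well above background on 3 of the 7 arrays. No test was made of the values in Cy5 alone.

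**Figure D4:**
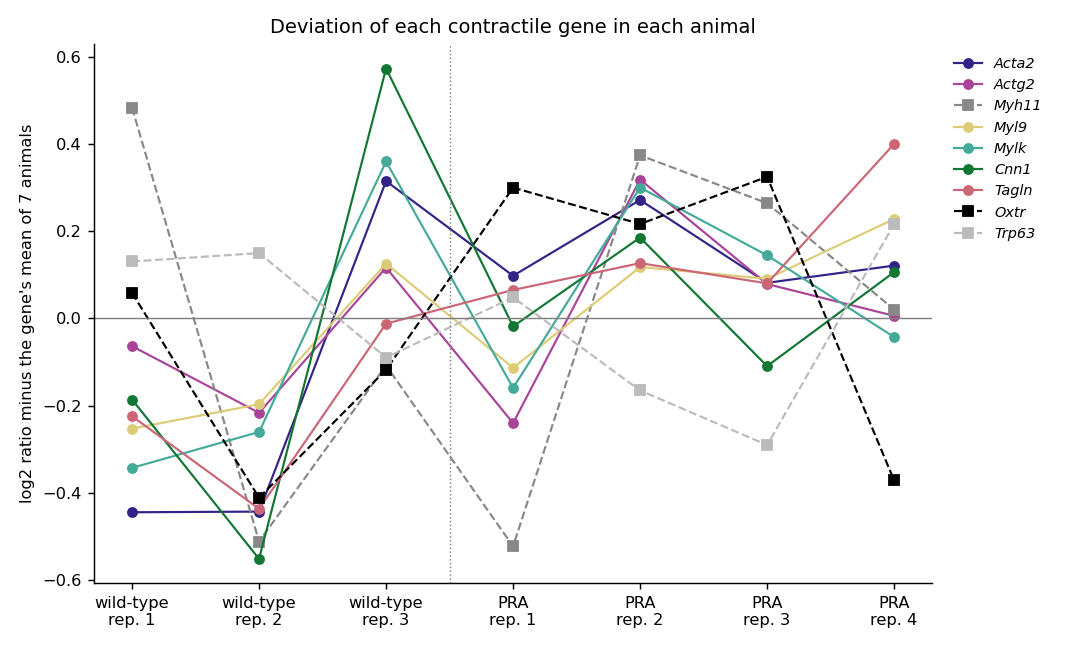
Log2 ratio of each gene minus its own mean over the 7 animals; a line joins the points of 1 gene and marks no order among animals, and the dotted line parts the genotypes. Acta2, Cnn1, Mylk, Myl9, Actg2 and Tagln lay below their means in wild-type replicates 1 and 2, whereas Myh11, Oxtr and Trp63 (dashed) lay above theirs in wild-type replicate 1.

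Genes of the actin filament system are often read together by serum response factor, which binds the CArG box. RefSeq promoter windows of GRCm38.p6, from 250 bases before to 50 after the start, were at hand for 6 of the 10 genes. Both strands were searched, and 1 of the 6 middle letters was allowed to be G or C. Matches were found for Myl9 and Acta2, which had r of 0.84 over the animals (exact permutation p = 0.0157, adjusted p = 0.176; rho 0.86, p = 0.0238; 0.30 without 2 animals). The boxes are in capitals with 10 bases on either side, and they start 161, 99, 84 and 34 bases before the start of transcription.
Myl9, chr2:156775293-156775322, plus strand: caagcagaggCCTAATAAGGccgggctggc
Myl9, chr2:156775355-156775384, plus strand: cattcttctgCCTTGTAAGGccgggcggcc
Acta2, chr19:34255438-34255467, minus strand: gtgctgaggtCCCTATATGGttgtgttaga
Acta2, chr19:34255388-34255417, minus strand: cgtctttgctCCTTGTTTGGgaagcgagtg
Such a match stood in 9.98% of all 32851 promoter windows, and one without any G or C in the middle, as in the first Myl9 box, in 1.63%. A match here is a description of the letters. The windows of Cnn1, Mylk, Oxtr and Lmod1 held none. Yet Acta2 had r of 0.85 with Cnn1, as given above. With Mylk its r was 0.87 (exact permutation p = 0.0109, adjusted p = 0.173; rho 0.89, p = 0.0123; 0.83 without 2 animals). A relation between the boxes and the correlations was not tested.

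The wider contractile pathway was described with lists of other genes, by the brightest kept probe of each. Of 43 measured genes of the contractile apparatus, the structural partners of these proteins, 16 were higher and 27 lower in PRA transgenics, and the median log2 fold change was -0.12. An unadjusted P under 0.05 was reached by 0 higher and 2 lower genes, which is 4.65% of the list against 9.02% of all probes (4.48% lower). The lower ones were Itga8, the integrin subunit alpha 8 (-0.95, adjusted p = 0.511 in limma), and Tpm4, a tropomyosin (-0.32, adjusted p = 0.539). Itga8 read 6.95, 7.02 and 7.01 in wild-type and 5.45, 6.21, 5.55 and 6.98 in PRA transgenics, so that PRA transgenic replicate 4 lay at the wild-type level, and its difference in Cy5 alone was -0.34. Tpm1, the other tropomyosin named by size, gave -0.86, and the largest positive values were those of Csrp1, a LIM domain protein (0.38), and Sorbs3, vinexin (0.33).

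Of 50 genes of contraction signaling, 26 were higher and 24 lower, with a median of 0.03 and 3 genes in each direction under 0.05, which is 6 of 50 genes against 9.02% of all probes. Adra1d, an alpha-1 adrenergic receptor, had the largest positive value (0.79, adjusted p = 0.462 in limma), followed by Pde5a, the phosphodiesterase that breaks down cyclic GMP (0.75, adjusted p = 0.542). Cacna1d, a calcium channel subunit, had the largest negative one (-1.23, adjusted p = 0.518 in limma), followed by Mylk2, the skeletal muscle myosin light chain kinase (-1.10). In Cy5 alone Adra1d gave 0.19 and Cacna1d -0.81. Neither list had a gene with an adjusted p under 0.05 in limma.

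Of 32 regulators of contractile genes, 9 were higher and 23 lower, and the median was -0.18. Under 0.05 were 0 higher and 3 lower genes, which is 9.38% of the list against 9.02% of all probes (4.48% lower). These were Heyl, a Notch target that encodes a repressor (-1.53), Foxf1, a forkhead factor (-0.91), and Smad7, the inhibitory Smad (-0.76). For each the PRA transgenics lay below every wild-type animal. In the whole list 4 of 32 genes did so and 0 lay above, against 4.51% and 5.41% of all probes. In Cy5 alone Heyl gave -0.23 and Foxf1 -0.90. Tbx18 (0.29) and Tead4 (0.26) had the largest positive values. None had an adjusted p under 0.05 in limma, the lowest in the list being 0.411.

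Contractile genes are expressed by more than one cell type, and the lists of those cells gave no adjusted p under 0.05 either. The basal epithelium list had 15 of 32 genes higher and a median of -0.08, with array means of 1.38 to 1.76 in wild-type and 1.39 to 1.63 in PRA transgenics. By the brightest kept probe of each gene, Ptprz1, a receptor phosphatase, was its single gene under 0.05 (-1.29). The paper reports Lamb3, also a gene of this list, as lower in PRA transgenics. The separate probes of Lamb3 were not compared here. Vascular mural cells, the pericytes and smooth muscle of vessels, had 12 of 21 genes higher and a median of 0.06, with array means of 2.59 to 2.89 and 2.55 to 2.79. In that list 0 higher and 3 lower genes were under 0.05, which is 14.3% against 9.02% of all probes (4.48% lower). They were Kcnj8 and also Heyl and Itga8 from the lists above. Kcnj8, a potassium channel subunit of pericytes, gave -1.02 (limma, adjusted p = 0.295), with genotypes that did not overlap, but -0.24 in Cy5 alone. The endothelium list had 12 of 16 genes higher, a median of 0.17 and Emcn, endomucin, as its largest value (0.78). The fibroblast list had 8 of 21 higher, a median of -0.08 and Col3a1, a collagen chain, as its largest negative one (-0.53). Luminal epithelium had 10 of 27 higher and a median of -0.09. White adipocytes had 15 of 17 higher and a median of 0.17, where 54.2% of all probes were higher. None of these lists stood apart between the genotypes by the range of its array means.

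Skeletal muscle genes, which share several actin and myosin partners with the lists above, had array means of 1.54, -0.34 and 2.28 in wild-type and -0.18, -0.47, -0.33 and 2.40 in PRA transgenics. Of 23 such genes 5 were higher and 18 lower, with a median of -0.67. Wild-type replicates 1 and 3 and PRA transgenic replicate 4 were high. Wild-type replicate 3 was also the highest animal for Acta2, Cnn1 and Mylk, whereas wild-type replicate 1 was the lowest or second lowest. Tagln had r of 0.30 with this list (exact permutation p = 0.479; rho 0.14, p = 0.783; -0.70 without 2 animals). For deviations from the genotype means, which were not tested, its r was 0.96. The other genes lay between -0.41 (Oxtr) and 0.61 (Myl9) by that measure. The part of skeletal muscle RNA in the values of the contractile genes was not tested. Of 70 correlations of the 9 genes and A_51_P216550 with the 7 cell type lists, 3 had an exact permutation p under 0.05. They were the brightest Trp63 probe with fibroblasts (r = 0.84, p = 0.0242; 0.98 without 2 animals), Oxtr with vascular mural cells (-0.80, p = 0.0312; -0.19) and Actg2 with white adipocytes (-0.78, p = 0.0355; -0.57). For deviations from the genotype means the last pair had r of -0.96, as large in size as that of Tagln with skeletal muscle. None of the 70 passed adjustment over them, the lowest adjusted p being 0.829.

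Among 15908 other named genes, the 5 whose log2 ratios over the 7 arrays were most like the mean standardised profile of the 9 genes were Rps26 (r = 0.98), Paip1 (0.97), Polb (0.97), Mbtps2 (0.97) and Tmem151b (0.97), values that are a description of these arrays.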

How the data were processed

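Gland RNA of 7 mice, 3 wild-type and 4 PRA transgenic by their labels, was measured on 2-colour Agilent arrays. The deposited scanner files hold processed intensity values per channel, for which the software used by the authors had subtracted the background and normalized the dyes within each array. The submitters' notes name Agilent Feature Extraction 12.0, and the file headers give 11.5.1.1. A table of log2 values was deposited as well; these equal the ratios of the processed channels after centring each probe on its median.

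Cy5 over Cy3 was expressed as a log2 ratio for each spot that was neither a control nor marked as an outlier, and replicate spots were averaged. For 34288 of 56605 probes Cy5 was well above background throughout 1 genotype, and these were tested with lmFit and eBayes (limma 3.58.1, R 4.3.3), with Benjamini-Hochberg adjustment over all of them. Intervals are at the 95% level. The kept probe brightest in Cy5 stood for its gene. Correlations over animals were tested by exact two-sided permutation. Of these steps only the limma fit was run on simulated ratios with known changes. Of 100 probes changed by 1 log2 unit, 27 had an adjusted p under 0.05, and of 100 changed by 2 log2 units, 77. So did 4 unchanged probes.

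The genes and lists were chosen with earlier results of these data known. Named were the contractile genes, those of their other probes that disagreed in sign by over 0.5 log2 units, the 2 genes with the largest difference in each direction of each pathway list, the largest of some cell type lists, and the 5 genes of most similar profile. Other probes, Tpm4, Smad7 and the keratins were chosen after their values were seen. Settings varied were the background correction (normexp, offset 50, and loess), the deposited table, the filter on dim probes (none, or both channels on all arrays), the scale (Cy5 alone, minus the 75th percentile), quantile normalization, the methods' t-test, a trend with intensity, weights for arrays, a replicate block, single arrays left out, the median over a gene's probes and, added after the data were seen, another Trp63 probe. Promoter windows are from RefSeq on GRCm38.p6, and probes are placed on mm9 as in the array files.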

Additional observations from a re-analysis of the deposited data

Results flagged for a closer look

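Among the 4 PRA transgenics, replicate 4 stood apart from the other 3 in 4 of 32 sets of values examined, 21 probes and 11 lists, where chance gives about 1.60. For Oxtr it read 4.36 against 4.94 to 5.05 (gap over range 0.845). For Mylk A_55_P2715663, one of the probes listed under another transcript, it read -0.88 against -2.01 to -1.84 (0.845). The skeletal muscle list had a mean of 2.40 against -0.47 to -0.18 (0.898), and the fibroblast list 2.18 against 1.65 to 1.72 (0.869). For Tagln and Myl9 the same animal was the highest of all 7, without standing apart by this measure. No explanation was tested.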

How the results depend on the processing

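The numbers of contractile genes with an adjusted p under 0.05, and with an unadjusted P under 0.01 and a 2-fold change, were 0 under all 18 alternatives and the added one, with the lowest adjusted p of any gene at 0.366. With an unadjusted P under 0.05 there was 1 gene, Tagln, in the ratio, and 0 with the replicate block (log2 fold change of Tagln 0.32). The block has no wild-type partner for PRA transgenic replicate 4, so its log2 fold changes equal those without that animal. Deviations from the genotype means of the same replicate number correlated at 0.10, -0.30 and 0.04. Those of unlike numbers correlated at -0.30 to 0.38, so these few values cannot decide whether the numbers pair the animals. With each array left out the number of genes under 0.05 ran from 0 to 3, where 6.65% to 12.3% of all probes passed. It was 0 without wild-type replicate 1 or 2 or PRA transgenic replicate 2 or 3, 3 without wild-type replicate 3 (Acta2, Cnn1 and Tagln), and 1 without PRA transgenic replicate 1 (Tagln) or 4 (Oxtr in place of Tagln). The number of genes whose genotypes did not overlap ran from 1 to 5, with 5 without wild-type replicate 3 and 2 without PRA transgenic replicate 4, where 17.3% and 19.5% of all probes did not overlap, against 9.93% with all arrays. The median log2 fold change lay between 0.052 and 0.31 in the fits that left out 1 array, lowest without wild-type replicate 2 and highest without replicate 3, and was 0.31 after quantile normalization.

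Of 171 single values, 165 kept their direction and their side of the threshold and 6 changed sign. Oxtr was -0.18 in Cy5 alone. Trp63 was 0.34 by the median over its probes and 0.20 by its next brightest probe. Leaving out arrays, Myh11 ran from -0.15 to 0.34, turning negative without wild-type replicate 2 or PRA transgenic replicate 2, and Cnn1 from -0.15 to 0.41, turning negative without wild-type replicate 2. By the value that stood for each gene, the 95% intervals stayed inside a 2-fold change except for Acta2 and Myh11 with the replicate block, Myh11 without wild-type replicate 1, Trp63 by the median over its probes and Lmod1 with no filter. Intervals of the other kept probes are not counted here. The cause of these changes was not tested, and the slide as a block was not run because there was 1 slide. A reference signal near background limits the ratios of Myh11, of the second Cnn1 probe and of 2 Trp63 probes.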
